A study of Rattus norvegicus with 8 samples.

Results

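The secreted matrix genes Cpxm1, Mmp23 and Fstl1 were taken from a list of 246 regions that were selected on their higher methylation in rat bladder urothelial carcinomas (UCs) than in control bladders. Each was followed CpG by CpG over its listed region and 1 kb on either side. The regions in rn6 are chr3:122920524-122920747 for Cpxm1, chr5:173081586-173081672 for Mmp23 and chr11:65845672-65845738 for Fstl1. Of 3403609 CpGs listed in at least 1 sample, 28 lay in the Cpxm1 window, 50 in the Mmp23 window and 74 in the Fstl1 window. Because the genes were chosen by the difference between UCs and controls, that difference is described here without a test.

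DNA methylation was measured by reduced representation bisulfite sequencing (RRBS), which reads CpG-rich fragments cut by restriction enzymes and scores each cytosine as methylated or not. The 5 UCs came from male F344/DuCrj rats given 200 ppm dimethylarsinic acid (DMA) in their drinking water for 104 weeks from an age of 10 weeks. The 3 controls were bladders of rats of the same strain given 0 ppm for the same time. The tumours were picked by size without histology, and it is not stated whether they came from 5 animals. The labels call the control tissue bladder urothelium, whereas the methods call it bladder tissue, so other bladder cells may be present. In such bulk DNA, a level between 0 and 100% cannot tell a share of cells from a share of alleles.

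The files held 51434938 to 73836223 calls per sample, with a median of 14 to 18 reads per CpG and no CpG under 3 reads. Among the 10 pairs of UCs, UC 1 with UC 2 and UC 4 with UC 5 were nearly alike. Fisher's exact test per CpG with at least 10 reads in both, with Benjamini-Hochberg adjustment over every tested CpG, called 88 CpGs between UC 1 and UC 2 and 35 between UC 4 and UC 5. The other pairs of UCs gave 66056 to 149416 calls, and pairs of controls gave 18 to 199. The labels do not explain these likenesses. The 5 UCs may thus hold fewer independent tumours, and values with each near-alike pair merged are given for levels, counts and coverage.

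Promoters rich in CpGs are usually free of methylation in normal tissue, and dense methylation of a promoter goes with silencing in many tumours. Cpxm1 encodes a secreted member of the carboxypeptidase family that binds collagen. Mmp23 encodes a matrix metalloproteinase that is made as a membrane protein and released by cleavage. Fstl1 encodes a secreted glycoprotein of the follistatin and SPARC family. Expression was not measured in the files analysed here.

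The sequences below are the 250 bases before each gene's start, since the listed region of Mmp23 and the CpGs beside that of Cpxm1 lie in them. They were taken from RefSeq on GRCr8, minus strand, and are written 5′ to 3′. Capitals mark the CpGs whose methylation was higher in the UCs by the definition given further on. Other CpGs were not gained or could not be judged, such as those of Cpxm1 from -2 to -47, and 17 of the 20 CpGs in the Cpxm1 sequence were measured. The places are chr3:138048444-138048693 for Cpxm1, chr5:171524535-171524784 for Mmp23 and chr11:76454054-76454303 for Fstl1.
Cpxm1: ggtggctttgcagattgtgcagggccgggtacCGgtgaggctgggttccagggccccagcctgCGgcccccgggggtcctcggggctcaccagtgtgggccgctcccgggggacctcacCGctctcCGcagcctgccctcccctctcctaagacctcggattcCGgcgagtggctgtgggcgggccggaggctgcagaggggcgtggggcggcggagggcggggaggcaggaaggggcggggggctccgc
Mmp23: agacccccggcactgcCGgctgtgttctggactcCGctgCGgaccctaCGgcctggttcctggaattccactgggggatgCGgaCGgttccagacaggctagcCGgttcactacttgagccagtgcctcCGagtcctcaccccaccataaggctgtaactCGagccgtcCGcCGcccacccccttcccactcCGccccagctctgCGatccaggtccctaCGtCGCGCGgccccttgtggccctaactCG
Fstl1: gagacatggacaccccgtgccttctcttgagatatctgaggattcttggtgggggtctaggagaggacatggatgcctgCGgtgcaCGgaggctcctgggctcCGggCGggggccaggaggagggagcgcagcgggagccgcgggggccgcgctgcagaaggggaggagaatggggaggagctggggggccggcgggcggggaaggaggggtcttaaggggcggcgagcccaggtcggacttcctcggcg
The files use rn6, so the sequences were placed on them by the spacing of the CpGs. All 18 of 18 listed CpGs in the span of the 300-base Cpxm1 sequence fell on a CpG, as did 23 of 23 for Mmp23 and 23 of 23 for Fstl1, against 2 of 2, 3 of 4 and 2 of 2 at the next-best place. Positions below are bases from the start found in this way, with negative values before the start.

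The sequences held 20 CpGs for Cpxm1, 20 for Mmp23 and 19 for Fstl1, where the median over 33469 rat promoter sequences of the same length was 5. Of these promoters, 83.3% had fewer CpGs than Cpxm1, 83.3% fewer than Mmp23 and 81.6% fewer than Fstl1. The letters CCGG, at which MspI cuts, stood 6 times in Cpxm1, 3 times in Mmp23 and 2 times in Fstl1, and in 46.2% of all promoters. TCGA, at which TaqI cuts, stood 1 time in Mmp23 and in neither of the other sequences, against 19.2% of all promoters. Both motifs read the same on both strands, and no CG can belong to both. RefSeq's Mmp23 record reaches 473 bases further before the start used here, so the Mmp23 region may lie inside the gene under another start.

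In all 3 listed regions every UC was above every control. The level of a region is the share of methylated calls among its calls. At Mmp23 the controls had 12.6%, 7.61% and 7.34%, and UC 1 to UC 5 had 86.0%, 88.7%, 49.0%, 88.5% and 88.8%. These are means of 9.17% ± 2.94 (SD, n = 3) and 80.2% ± 17.5 (SD, n = 5). UC 3 lay far below the other UCs and still far above the controls.

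At Fstl1 the controls had 2.61%, 1.39% and 1.22%, and UC 1 to UC 5 had 53.9%, 50%, 22.9%, 44.8% and 45.1%. The means were 1.74% ± 0.761 (SD, n = 3) and 43.3% ± 12.04 (SD, n = 5). UC 3 was again the lowest UC. At Cpxm1 the controls had 5.0%, 2.74% and 2.30%, and UC 1 to UC 5 had 22.6%, 55.6%, 32.5%, 43.9% and 36.9%. The means were 3.35% ± 1.45 (SD, n = 3) and 38.3% ± 12.4 (SD, n = 5), and here UC 1 was the lowest.

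The depth behind these levels differed. The Cpxm1 region had as few as 31 calls in UC 1, where the 95% Wilson interval was 11.4% to 39.8%, and 54 in UC 2, where it was 42.4% to 68.0%. These intervals cover counting error only, and CpGs on one read are not independent. The smallest number of calls was 141 for Mmp23 and 262 for Fstl1. With near-alike UCs merged, the difference between group means was 35.2 points at Cpxm1, 65.7 at Mmp23 and 38.4 at Fstl1, against 34.9, 71.0 and 41.6 with 5 UCs.

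**Figure D1:**
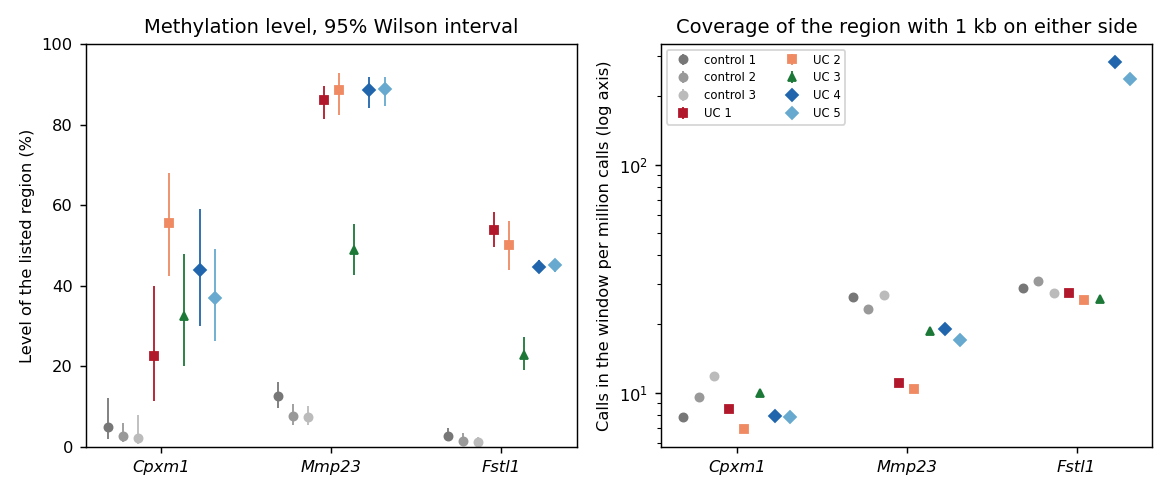
Left, methylation level (%) of each listed region in each sample, with 95% Wilson intervals. Right, calls in the region with 1 kb on either side per 1000000 calls of the sample, on a log axis. UC 3 is the lowest UC at Mmp23 (49.0%) and Fstl1 (22.9%), and UC 4 and UC 5 stand apart in the coverage of Fstl1 (281 and 238).

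To find where the higher methylation started and ended, a CpG was called usable when at least 2 controls and 3 UCs had 3 reads or more. It was called gained when every such UC was above every such control and the group means differed by over 10 points. Of 2532190 usable CpGs in the genome, 7% were gained. In the windows, 42 of 47 usable CpGs were gained at Mmp23, 11 of 21 at Cpxm1 and 15 of 71 at Fstl1. These counts describe the windows and, since the contrast chose the genes, nothing is read from them. With near-alike UCs merged, they were 42, 14 and 15. For the stretches described next, merging moved the UC mean by between -6.01 and 1.74 points.

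At Mmp23 the gain was broad. It held every usable CpG from position -89 to -1112, over 21 usable CpGs and 1024 bp, and reached the last usable CpG of the window. No CpG was usable over 400 bp between -233 and -633 and over 259 bp between -853 and -1112, so the run is one of measured CpGs. When a single CpG that was not gained was passed over, it covered 42 of 44 CpGs over 1909 bp, from +796 inside the gene to -1112, with a further 606 bp unmeasured between +646 and +40. From +40 to -242, around the start, the controls averaged 8.11% ± 2.20 (SD, n = 3) and the UCs 73.9% ± 20.3 (SD, n = 5). UC 3 had 37.7% there, whereas the other UCs had 80.8% to 85.6%.

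Inside Mmp23, from +841 to +646, the controls were already partly methylated, at 41.4% ± 4.88 (SD, n = 3) against 78.2% ± 11.5 in the UCs (SD, n = 5). Further before the start, from -738 to -853, the controls had 9.20% ± 4.37 (SD, n = 3) and the UCs 60.0% ± 11.8 (SD, n = 5). Of the 5 usable CpGs that were not gained, 3 were the innermost of the window, at +841, +838 and +818. At the other 2, at +714 and -84, the UC mean was higher but at least 1 UC did not pass every control. Fewer than 10 reads lay on several CpGs of these stretches.

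A look at 1 to 5 kb on either side, added after the data had been seen, followed Mmp23 beyond the window. On the gene side the gain had already ended inside the window, between +796 and +818. Past the gene side, 0 of 12 usable CpGs were gained, and the UC mean of 31.7% was below the control mean of 39.6%. On the side before the start 1 of 36 was gained, and there the controls averaged 78.0% and the UCs 54.9%. The first usable CpG on that side, 1467 bp from the listed region, had a control mean of 24.4% and a UC mean of 35.9%. It was not gained, and no CpG was usable between it and -1112, so the end on that side was not located.

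**Figure D2:**
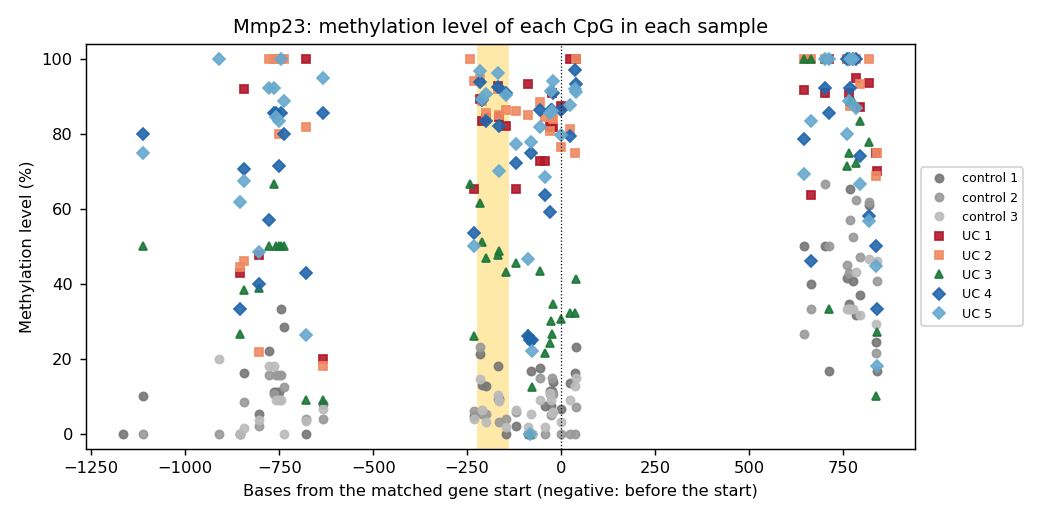
Methylation level (%) of each CpG of the Mmp23 window in each sample, against bases from the gene start (dotted line). The shaded band is the listed region. Around the start the controls lie low, UC 3 lies between at most CpGs, and the other UCs lie high except at a few CpGs such as -89, where UC 4 has 26.1% and UC 3 26.7%.

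At Fstl1 the stretch of gain that held the listed region was short. It covered 7 CpGs over 68 bp, from -297 to -364, and was bounded on both sides by CpGs that were not gained, 4 bp and 42 bp away. At -293 the controls averaged 0% and the UCs 2.43%, and at -406 they averaged 1.28% and 3.51%. From there towards the gene, over 60 CpGs from +584 to -293, the controls had 0.966% ± 0.489 (SD, n = 3) and the UCs 6.80% ± 1.32 (SD, n = 5). Around the start of Fstl1, over 35 CpGs from +162 to -170, the UCs had 5.88% ± 1.84 (SD, n = 5) and the controls 0.807% ± 0.370 (SD, n = 3).

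Outside this stretch, 4 neighbouring CpGs of Fstl1 from -142 to -170 were gained, with UC means of 14.4% to 27.4% and no methylated call in any control. The other 4 gained CpGs lay at -283, +381, +549 and -932. On the far side, 8 CpGs were pooled, from -364, the last CpG of the stretch itself, to -977. There the controls had 24.0% ± 8.47 (SD, n = 3) and the UCs 42.2% ± 13.7 (SD, n = 5), and the groups overlapped. Samples had 4 to 8 of these CpGs, so these levels are not of the same CpGs. Among them the control mean was 2.16% at -364 and 94.6% at -977. In the look at 1 to 5 kb described for Mmp23, 2 of 4 usable CpGs on the gene side were gained, with a control mean of 41.6% and a UC mean of 75.4%, and 0 of 3 on the other side.

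**Figure D3:**
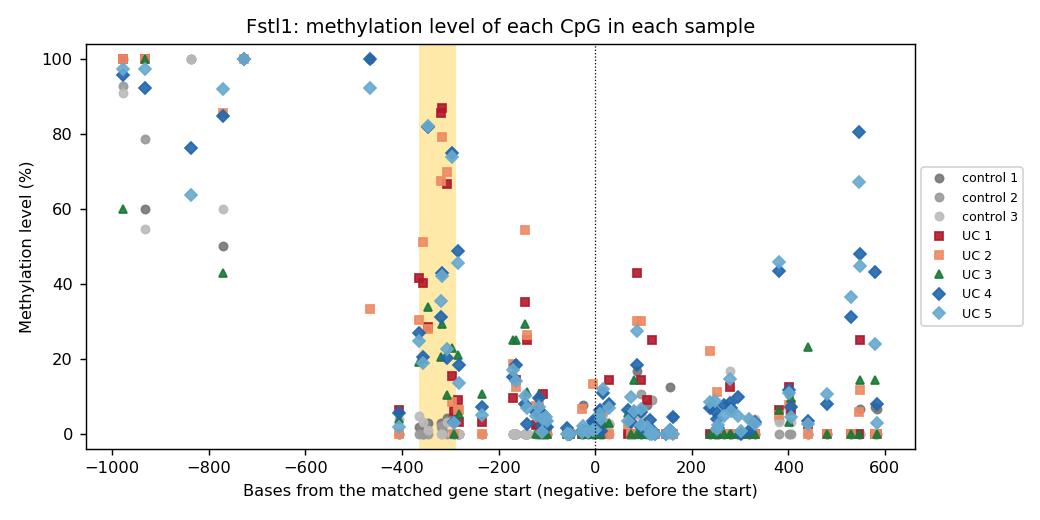
Methylation level (%) of each CpG of the Fstl1 window in each sample, against bases from the gene start (dotted line), with the listed region shaded. In the shaded band all 5 UCs lie above the controls. Most CpGs around the start lie near 0%, but at -146 UC 2 has 54.3%. Raised levels also stand elsewhere, as at +546 with 80.4% in UC 4 and 67.2% in UC 5. At -932 the UC mean is 97.9% and the control mean 64.4%.

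At Cpxm1 the gain sat on both sides of a poorly covered start. After the start, the stretch from +130 to +103 held 4 gained CpGs over 28 bp. Over the 8 CpGs from +160 to +95 the controls had 3.43% ± 0.597 (SD, n = 3) and the UCs 42.0% ± 9.49 (SD, n = 5), but with 3 to 54 calls per UC, and UC 1 had 1 CpG there. Around the start, from +4 to -64, 1 of 8 CpGs was usable, and UC 2 and UC 4 had no call. The region's level in UC 1 rested mainly on these CpGs, which in the listed region had no call in UC 2, UC 3 and UC 4, so the UCs' levels there are not of the same CpGs.

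Before the start, where coverage was deeper, the gain of Cpxm1 was smaller. Over 10 CpGs from -86 to -217 the controls had 2.09% ± 1.05 (SD, n = 3) and the UCs 14.8% ± 2.79 (SD, n = 5). Of these CpGs, 5 were gained. At -143, -149, -169 and -179, which were not gained, the UC means were 9.14%, 5.22%, 3.36% and 1.73%. The control means there were 4.12%, 3.48%, 1.92% and 0%. At -123 the controls had 2 of 44, 1 of 34 and 0 of 90 calls methylated, and UC 1 to UC 5 had 10 of 63, 9 of 48, 23 of 52, 22 of 45 and 28 of 56. Deeper in the gene, at +830 and +749, the controls had 59.1% ± 1.02 (SD, n = 3) and the UCs 91.1% ± 3.30 (SD, n = 5). In the added look beyond the window on that side, 0 of 30 usable CpGs were gained, the control mean was 93.1%, the UC mean was 92.8%, and no CpG was usable on the other side.

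**Figure D4:**
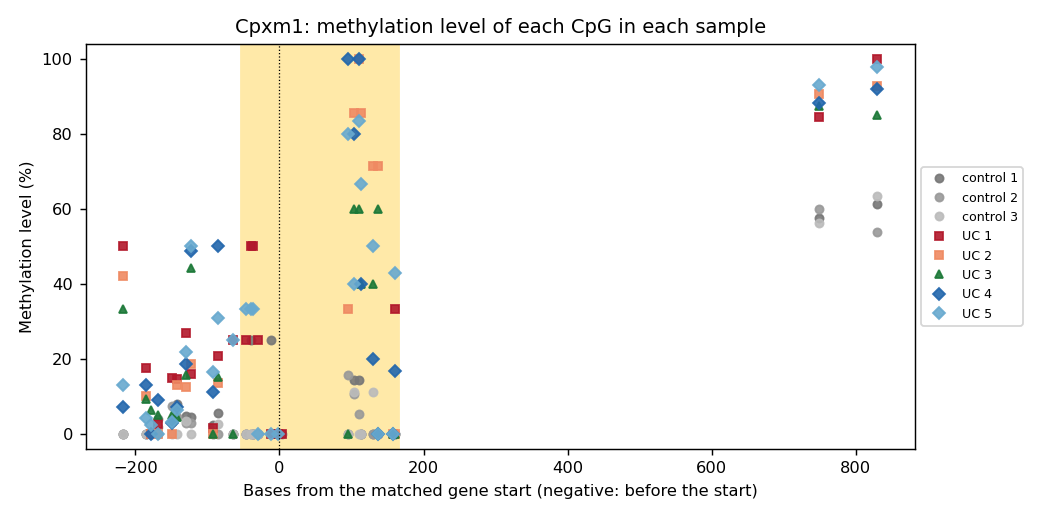
Methylation level (%) of each CpG of the Cpxm1 window in each sample, against bases from the gene start (dotted line), with the listed region shaded. In the shaded band after the start the UCs reach high levels on few reads. The CpGs before the start are lower, and the pair deep in the gene is high in the UCs and intermediate in the controls.

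The UCs were then compared with each other. The level of every UC against the controls entered the choice of the regions, but the differences between UCs did not. The CpGs of the windows are thus not a random sample to set against the shares over the genome. Each comparison is of 2 libraries and its error is counting error only. Over the genome, UC 1 differed from UC 2 at 0.00554% of the CpGs tested, from UC 3 at 6.18%, from UC 4 at 6.62% and from UC 5 at 8.31%. UC 2 differed from UC 3 at 6.65%, from UC 4 at 7% and from UC 5 at 8.67%. UC 3 differed from UC 4 at 4.5% and from UC 5 at 6.87%, and UC 4 from UC 5 at 0.00213%. For controls the share was 0.012% for 1 and 2, 0.0126% for 1 and 3, and 0.0012% for 2 and 3. In the 3 windows, 40 CpGs were called between at least 1 of the 10 pairs of UCs. The same count was not made over the genome, so nothing is read from it.

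At Mmp23, UC 3 differed from each of the other UCs. Of the CpGs tested, 12 of 25 were called against UC 1, 17 of 26 against UC 2, 12 of 29 against UC 4 and 17 of 29 against UC 5, and at every one UC 3 was the lower. Between the pairs UC 1 or UC 2 and UC 4 or UC 5, 2 to 4 CpGs were called. Among these was the CpG at -633, with 2 of 10, 2 of 11 and 2 of 22 calls methylated in UC 1, UC 2 and UC 3 but 18 of 21 and 19 of 20 in UC 4 and UC 5. It differed between UC 1 and UC 5 by Fisher's exact test at an adjusted p of 0.00170. At the next CpG, -680, the order turned, with 10 of 10 in UC 1 and 5 of 19 in UC 5 (Fisher's exact test, adjusted p = 0.00434).

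At Fstl1 the 2 near-alike pairs of UCs carried different patterns. Of the CpGs tested, 10 of 51 were called between UC 1 and UC 4, 10 of 51 between UC 1 and UC 5, 12 of 61 between UC 2 and UC 4 and 11 of 61 between UC 2 and UC 5. They went in both directions, with UC 1 higher at 6 and UC 4 higher at 4. At -297, UC 1 to UC 3 had 13 of 84, 4 of 47 and 14 of 61 calls methylated, and UC 4 and UC 5 had 396 of 528 and 422 of 572. At -306, 9 bases away, UC 1 and UC 2 had 56 of 84 and 30 of 43, UC 3 had 7 of 68, and UC 4 and UC 5 had 117 of 581 and 154 of 679.

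The same turn came again within the Fstl1 region. At -347, UC 1 had 24 of 84 calls methylated and UC 4 had 474 of 580 (Fisher's exact test, adjusted p = 2.37e-18). At -316, UC 1 had 73 of 84 and UC 4 had 250 of 581 (Fisher's exact test, adjusted p = 9.95e-12). The region's levels of 53.9% in UC 1 and 44.8% in UC 4 were thus made up unequally over its CpGs. Inside the gene, at +381, UC 4 and UC 5 had 116 of 267 and 168 of 366, whereas UC 1 to UC 3 had 2 of 32, 2 of 39 and 2 of 31. At +546, UC 4 and UC 5 had 41 of 51 and 45 of 67. On fewer reads, UC 1 to UC 3 had 0 of 4, 1 of 17 and 0 of 7 there. Against UC 3 fewer Fstl1 CpGs could be tested, and 3 of 29 were called with UC 1, 5 of 37 with UC 2, 4 of 37 with UC 4 and 4 of 37 with UC 5.

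**Figure D5:**
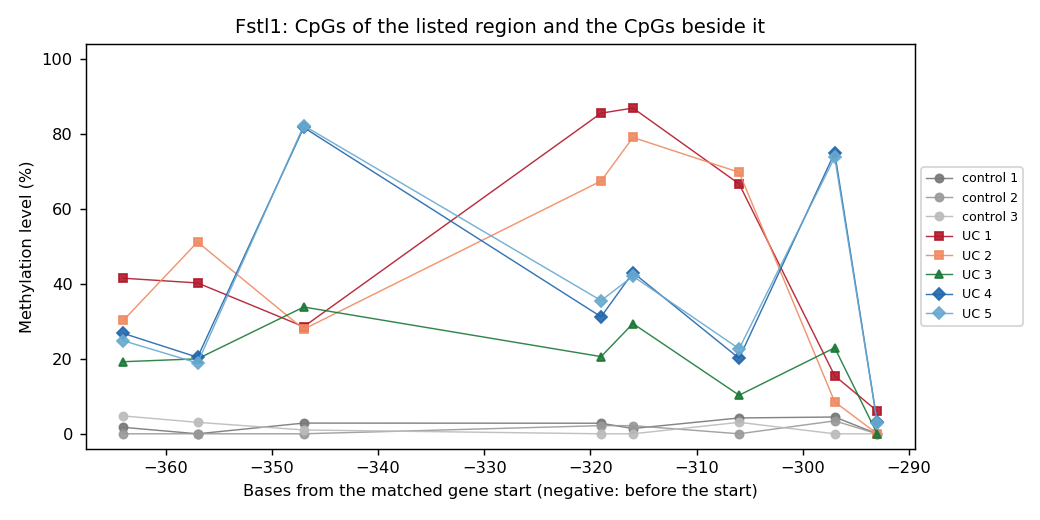
Methylation level (%) of the Fstl1 CpGs from -364 to -293 in each sample, against bases from the gene start, with lines joining the CpGs of a sample. UC 4 and UC 5 peak at -297 and -347, and UC 1 and UC 2 peak from -306 to -319. UC 3 stays lower, is highest at -347 with 33.8%, and lies above UC 1 and UC 2 at -297 and -347.

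At Cpxm1, 12 CpGs could be tested in each pair, all outside the thin stretches, and 0 to 2 were called. The CpG at -123 was called between UC 1 and UC 3, UC 4 and UC 5 and between UC 2 and UC 5, and was lower in UC 1 and UC 2 each time. The CpG at -93 was called between UC 5, with 9 of 55 calls methylated, and both UC 2, with 0 of 48, and UC 3, with 0 of 52. Between UC 1 and UC 2, 0 CpGs of the 3 windows were called of 78 tested, with 3 at an unadjusted p under 0.05, and between UC 4 and UC 5 0 of 118, with 5. The 3 pairs of controls gave 0 calls of 88 to 100 tested, with 0 to 2 at an unadjusted p under 0.05.

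In tiles of 200 bp tested across the genome with a quasi-binomial model moderated by limma, 9.29% of 258144 tiles were called higher in the UCs, or 23982 tiles. With near-alike UCs merged 11436 tiles were called, and without control 3 it was 11347. Of the tiles inside the windows, 1 of 1 was called at Cpxm1, 4 of 4 at Mmp23 and 1 of 5 at Fstl1. The called Fstl1 tile was the one that held the listed region, and the Cpxm1 tile did not hold it. This is the contrast that chose the genes, and nothing is read from the counts.

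Coverage, which the choice did not use, was compared as calls in the window per 1000000 calls of the sample. At Mmp23 the controls had 26.4, 23.2 and 26.7, and UC 1 to UC 5 had 11.01, 10.4, 18.7, 19.0 and 17.1. Every UC was below every control (exact permutation test over 56 divisions, two-sided, p = 0.0179, the smallest possible), with a difference of -10.2. With near-alike UCs merged the difference was -9.67, and with 3 against 3 samples p was 0.1 by the exact permutation test, the smallest that design allows, so the call was lost. As a share of the chromosome's calls, p was 0.0536 by the same exact test. Leaving out control 1 gave p = 0.0952, and leaving out control 3 gave p = 0.0952, also by exact permutation. The part of this in the methylation levels was not tested.

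At Fstl1 the coverage was 28.8, 30.8 and 27.4 in the controls and 27.4, 25.5 and 25.8 in UC 1 to UC 3, but 281 in UC 4 and 238 in UC 5. As a share of the calls of chromosome 11, the window was also raised, at 6172 and 5577 per 1000000 in UC 4 and UC 5 against 932 to 1208 in the other samples. At Cpxm1 it was 7.83, 9.60 and 11.8 in the controls and 8.50, 6.96, 9.95, 7.89 and 7.79 in the UCs. Neither difference between groups passed the exact permutation test (p = 0.464 for Fstl1 and p = 0.250 for Cpxm1, 3 windows tested, unadjusted).

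Among the 202 regions of the list that were covered in every sample, Mmp23 ranked 1 by the difference between group means, Fstl1 15 and Cpxm1 24. The level of UC 3 was 55.7% of the mean of the other UCs at Mmp23, 47.2% at Fstl1 and 81.8% at Cpxm1, where the median over the list was 54.3%. The regions most like each gene were ranked by the root mean square difference over the 8 samples. For Mmp23 they were Nradd at 8.32 points, Mdk at 10.5 and Aaas at 10.6. For Fstl1 they were Actl6b at 3.73, Ranbp17 at 4.88 and Ptprn2 at 5.29, and for Cpxm1 Bfsp1 at 8.04, Kcnk9 at 8.54 and Robo2 at 9.57.

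A hand-picked set of 9 other genes of matrix or secreted proteins on the list was set beside them. It is not every such gene of the list, which also holds Mdk, for example. Of the 9, 7 were covered, and Nell1 and Thbs4 were not. In 7 of 7 every UC was above every control, against 188 of 202 over the list. Their median difference was 17.4 points, against 17.6 over the list. Within the set, the largest was that of Mfap2, which encodes a microfibril protein, whose control mean was 13.4% and UC mean 54.9%. The smallest was that of Col2a1, a fibrillar collagen gene, with 2.71% and 16.4%. The list was chosen on these samples, so its counts are not independent evidence.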

How the data were processed

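RRBS was done on 5 UCs and 3 control bladders. The authors trimmed the reads, mapped them on rn6 with RRBSMAP, discarded reads that mapped more than once and used barcodes to drop PCR duplicates. Per the file headers, the deposited values are, for each CpG, a count of methylated (C) calls and a count of all (C or T) calls. The deposited effective count, an expected count that the authors' caller corrects for base variants, was used only as an alternative. Samples were grouped by their labels.

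Levels were the C count divided by the C and T count, on CpGs of at least 3 reads. Tiles of 200 bp, with at least 3 CpGs in every sample, were tested with a quasi-binomial model moderated by limma 3.58.1 in R 4.3.3, with Benjamini-Hochberg adjustment. A tile was called at an adjusted p under 0.05 and a difference over 10 points. Single CpGs with at least 10 reads were tested between 2 samples by Fisher's exact test, computed with numba 0.67.0 and checked against scipy 1.17.1. Coverage was compared by exact permutation. The tile test and Fisher's exact test were checked on simulated calls. Python 3.11.15, numpy 2.4.6, pandas 2.3.3 and matplotlib 3.10.9 were used.

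With 51434938 to 73836223 calls per sample the genome-wide shares are precise, while a region can rest on 31 calls. The genes, the matrix list and the alternatives were chosen with earlier results of these data known. The genes named outside the 3 are the 3 regions most alike to each and the largest and smallest of the matrix list. Promoter sequences are on GRCr8. The gene starts and the capitals were placed between the builds by the spacing of the CpGs alone. Positions from the start are distances on rn6 and rest on that match. Matrix genes outside the list were not analysed here. The controls were bladders of age-matched control rats, but nothing shows that the UCs came from separate animals. The p-values of the tile and permutation tests thus measure the spread between these samples. Those of Fisher's exact test cover counting error only. The alternatives were other read minimums and differences, the effective count, the mean of CpG levels, pooled calls, limma on M values (log2 with 1 call added), no moderation, a replicate block, merged UCs and each sample left out in turn.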

Additional observations from a re-analysis of the deposited data

Results flagged for a closer look

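Of 20 levels and coverage values examined over the 5 UCs, 4 had a sample far from the others by Dixon's criterion. Chance would give about 1 if the values and the UCs were independent. The values share CpGs, however, and UC 3 is the only UC without a near-alike sample, so nothing is read from the number of flags. At Mmp23 the level of UC 3 relative to the other UCs, 55.7%, was near the median over the list, 54.3%. All 4 flags were UC 3 at Mmp23, and they share CpGs or neighbouring CpGs. Its level was 49.0% in the listed region, 39.7% on the side towards lower coordinates, 32.0% on the side towards higher coordinates and 37.7% around the start.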

How the results depend on the processing

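Of 206 alternative values, 185 kept their direction and their side of the threshold or stayed close, and 0 reversed. Only differences in level or coverage could reverse, since counts could only stay close or move. A level difference stayed close when it moved by less than the SD of the UCs. The values that stayed close include pairs of samples with 0 calls in every setting. The number of gained CpGs at Cpxm1 fell from 11 to 7 when all 8 samples needed 3 reads and to 7 with 10 reads. At 10 reads the Cpxm1 region had no level in some samples, so no difference was computed. Leaving out 1 sample gave region differences of 30.6 to 38.9 points at Cpxm1, 68.9 to 78.8 at Mmp23 and 38.9 to 46.7 at Fstl1. It gave 10 to 12, 38 to 42 and 15 to 18 gained CpGs. The 23982 tiles called higher became 14900 with a difference over 20 points, 15166 without moderation, 14623 with 10 reads per CpG and 11436 with UCs merged. The 18445 called lower became 9970 with 10 reads and 10090 with UCs merged. Leaving out 1 sample gave 11347 to 33548 higher and 9867 to 24003 lower, and 6 to 9 called tiles in the windows. The lowest counts came without control 3. The Mmp23 coverage difference of -10.2 ranged from -11.3 to -8.99 without 1 sample, and was -112 per 1000000 calls of the chromosome (exact permutation test, p = 0.0536) and -9.67 with UCs merged (exact permutation test, p = 0.1), which was added after seeing the data. For these changes the cause was not tested. With a replicate block, limma called 0 tiles higher and 0 lower, and 0 in the windows, with 74248 tiles at an unadjusted p under 0.05. The correlations of deviations between same-numbered samples were 0.0149, -0.0133 and 0.0401. Those between samples of different numbers ran from -0.0737 to 0.0321. Nothing stated makes the number a pairing, and so few correlations cannot settle it. The thinnest depth was that of Cpxm1 around its start.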
